A study of Mus musculus with 12 samples.

Results

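The 10 genes examined here encode the glucose transporter Slc2a1 (GLUT1), the hexokinase Hk2, and 8 further enzymes that carry glucose carbon to lactate, namely Aldoa, Tpi1, Gapdh, Pgk1, Pgam1, Eno1, Pkm and Ldha. They were taken from the deposited table by gene symbol. This gave 11 of its 17419 entries, because the symbol Aldoa belongs to 2 of them. The cells were NIH-3T3, an established line of mouse embryonic fibroblasts, labelled as wild type, and the RNA was total RNA. The medium was supplemented with 4-thiouridine (4sU) at 800 µM for 15, 30, 60, 90 or 120 min before harvest, or the cells received none (no4sU). Each of these 6 groups had 2 libraries, replicates A and B, which made 12 libraries, 10 of them labelled. All libraries came from the same line, and no gene was altered. The labels do not say whether A and B were separate cultures, so the p-values below measure the spread between these samples, which may be technical.

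Glucose enters most cells through facilitative transporters of the SLC2A family, of which Slc2a1 is the main form in many cultured cells, and hexokinase traps it inside the cell as glucose 6-phosphate. The lower enzymes split the hexose, oxidise the products, make ATP and end at pyruvate, which lactate dehydrogenase converts to lactate. Messenger RNAs of the lower enzymes are abundant and long-lived in most cell types, and several of them serve as reference genes in expression assays. Transcripts of the pathway, among them those of Hk2 and Slc2a1, can respond to growth factors and to oxygen. In SLAM-seq, cells build 4sU into the RNA made during labelling, and iodoacetamide then changes the 4sU so that sequencing reads it as C. These T-to-C changes give an estimate of how much of a gene's RNA is new, the new-to-total ratio (NTR). The study asked what bias the duration of labelling brings into such measurements. A transcript with a high NTR carries more 4sU than a transcript with a low one, so a set of genes that spans the range of turnover bears on that question.

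The transcripts differed in their regulatory sequence. The 3′ UTR of Hk2 (principal transcript in GENCODE M21, build GRCm38) was 2285 bases long and held 7 copies of AUUUA, a pentamer found in many short-lived messenger RNAs. The 3′ UTR of Slc2a1 held 2 copies in 1537 bases, that of Pgk1 held 2, that of Aldoa held 1, and the other 6 genes held 0. Of 8881 genes with a 3′ UTR of at least 10 bases, 69.9% held the pentamer and 13.6% held 7 or more, with a median of 2. The median was 4 in 1212 genes whose 3′ UTR was 0.8 to 1.2 times as long as that of Hk2. Hk2 alone among the 10 held the nonamer in which UU precedes the pentamer and U and then U or A follow it, a motif found in 10.8% of the 8881 genes. The windows below show the nonamer of Hk2, a pair of its overlapping pentamers, and a site of Slc2a1, 5′ to 3′ on the transcript, with a pentamer in capitals. They lie at chr6:82725903-82725927 and chr6:82726624-82726648 on the minus strand, in exon 18 of Hk2, and at chr4:119137186-119137210 on the plus strand, in exon 10 of Slc2a1.
Hk2 nonamer: uauacgaguuAUUUAuuccagacug
Hk2 overlapping pair: uuugaaauuuAUUUAguuugaagca
Slc2a1: gauggaagauAUUUAuauauuuuuu
These letters were searched on the transcript strand, a search chosen after the values below had been seen, and a match is a description of sequence and not of a working element.

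Upstream of the start sites, ACGTG, a form of the hypoxia response element's core, was searched on both strands in the 250 bases before each RefSeq start (GRCm38.p6). It was present in 5 of the 10 genes, each taken at the start nearest to that of GENCODE, against 16.6% of 32851 promoters. These promoters include several starts for some genes and, unlike the members, were not limited to genes expressed here. The other form, GCGTG, was present in 5 (Gapdh, Ldha, Eno1, Pgam1 and Slc2a1), against 28.2%, and 1 or both in 8, against 38.6%. The E-box CACGTG, which contains ACGTG, was present in 0 of the 10 and in 6.02% of all promoters. The windows are shown because they include the genes with the highest NTR as well as members of the slow group. They are written on the strand of the gene, with ACGTG or its complement CACGT in capitals. Their positions are chr6:82774482-82774526 (minus strand) for Hk2, chr4:119108689-119108733 (plus) for Slc2a1, chrX:106186930-106186993 (plus) for Pgk1, chr7:126799356-126799400 (minus) for Aldoa and chr19:41911737-41911781 (plus) for Pgam1.
Hk2: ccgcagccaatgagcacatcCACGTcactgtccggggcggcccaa
Slc2a1: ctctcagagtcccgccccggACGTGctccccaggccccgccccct
Pgk1: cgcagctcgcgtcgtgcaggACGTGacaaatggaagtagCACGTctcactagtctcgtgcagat
Aldoa: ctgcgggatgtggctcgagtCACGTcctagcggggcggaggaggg
Pgam1: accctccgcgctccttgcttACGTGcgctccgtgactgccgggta

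Library totals lay between 9917026 and 13739380 reads, and the members took 1.10% of all counts. The labelled replicates differed less from each other than the unlabelled pair. The SD of the log2 difference between replicates over genes was 0.11 to 0.12 in the labelled groups and 0.21 between no4sU A and B. In that pair, the value of A minus B was lower in longer genes (Spearman rho across genes -0.58, given as a description). Among the members it ran from 0.21 log2 for Tpi1, of 1607 bases, to -0.18 for Hk2, the longest at 5513 bases, but Gapdh, at 3289 bases, also had 0.21. In the mean of the libraries, all 10 fibroblast markers exceeded 1 CPM, among them Col1a1, Fn1 and Vim. CPM is the unit of counts scaled to library size, here with TMM factors. The 6 epithelial markers were below 1 CPM in every library or not in the table. Of 16 leukocyte, endothelial, muscle and neuronal markers, Cd68, Cdh5, Acta1 and Tubb3 exceeded 1 CPM in the mean. Snap25 reached 1 CPM in at least 1 library but did not exceed it in the mean. Fewer cells and less RNA per cell cannot be told apart in bulk samples such as these.

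Per kilobase of deposited gene length, the lower enzymes were about an order of magnitude more abundant than the transporter and the hexokinase. Pkm (chr9:59656368-59679375), pyruvate kinase of most tissues, stood at 1131 CPM per kb over the 12 libraries. It was followed by Ldha (chr7:46841475-46855627) at 748, Eno1 (chr4:150236721-150248879) at 699, Gapdh (chr6:125161715-125166467) at 646, Aldoa (chr7:126795234-126800751) at 575 and Pgk1 (chrX:106187100-106203699) at 473. Tpi1 (chr6:124810586-124814296) had 371 and Pgam1 (chr19:41911923-41918660) 361 CPM per kb. Slc2a1 (chr4:119108711-119137983) had 64.3 and Hk2 (chr6:82725025-82774454) 23.6 CPM per kb. The level of Gapdh depends on the length chosen. The deposited 3289 bases exceed the 1420 bases of its principal transcript, on which it would have 1496 CPM per kb and lead the group. The positions are those of GENCODE M21, since none of the sources used here names the build of the table. In raw reads, each library had 1162 to 2058 reads of Hk2 and 2089 to 2802 of Slc2a1, and at least 5553 reads of each lower enzyme.

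New RNA accumulated at very different rates. The NTR of Hk2 was 3.05% (A) and 0.67% (B) after 15 min, 9.83 and 12% after 30 min, 38.9 and 41.3% after 60 min, 73.3 and 65.4% after 90 min, and 94.4 and 94.2% after 120 min. Nearly all Hk2 RNA at 120 min was therefore read as made during labelling, with a 90% interval of 90.5 to 97.2% in replicate A. Among the 9065 genes whose mean count reached 100, 94.8% had a lower NTR at 120 min than Hk2. For Slc2a1 the NTR was 1.54 and 0% after 15 min, 6.06 and 7.03% after 30 min, 15.9 and 17.7% after 60 min, 30.0 and 26.6% after 90 min, and 46.3 and 44.7% after 120 min. This was above the median of all genes, which was 35.4% at 120 min, and 62.2% of genes were lower. At 15 min the replicates of both genes disagreed, and their 90% intervals were 2.07 to 4.50% and 0.59 to 1.54% for Hk2. The difference was not limited to these genes. At 15 min the median NTR of all genes was 1.34% in A and 0.67% in B, and Pkm had 0.68 and 0.32%.

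The lower enzymes formed a slow group. At 120 min their NTR was 8.40% ± 0.453 for Pgk1, 10.3% ± 0.0071 for Ldha, 10.6% ± 0.651 for Aldoa, 11.3% ± 0.198 for Gapdh, 11.3% ± 0.0495 for Pkm, 11.8% ± 0.0424 for Eno1, 12.6% ± 0.785 for Tpi1 and 15.8% ± 0.453 for Pgam1 (SD, n = 2). Between 2.01% (Pgk1) and 15.1% (Pgam1) of genes had a lower NTR. The order was only partly resolved. Pgk1, which makes the first ATP of the pathway, lay below Ldha without overlap of the 90% intervals, and Pgam1, which moves the phosphate of 3-phosphoglycerate, lay above Tpi1 in the same way. Between Ldha and Tpi1 the intervals of each neighbouring pair overlapped. Slc2a1 and Hk2 were each separated from the gene below. These differences between genes were not tested.

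**Figure D1:**
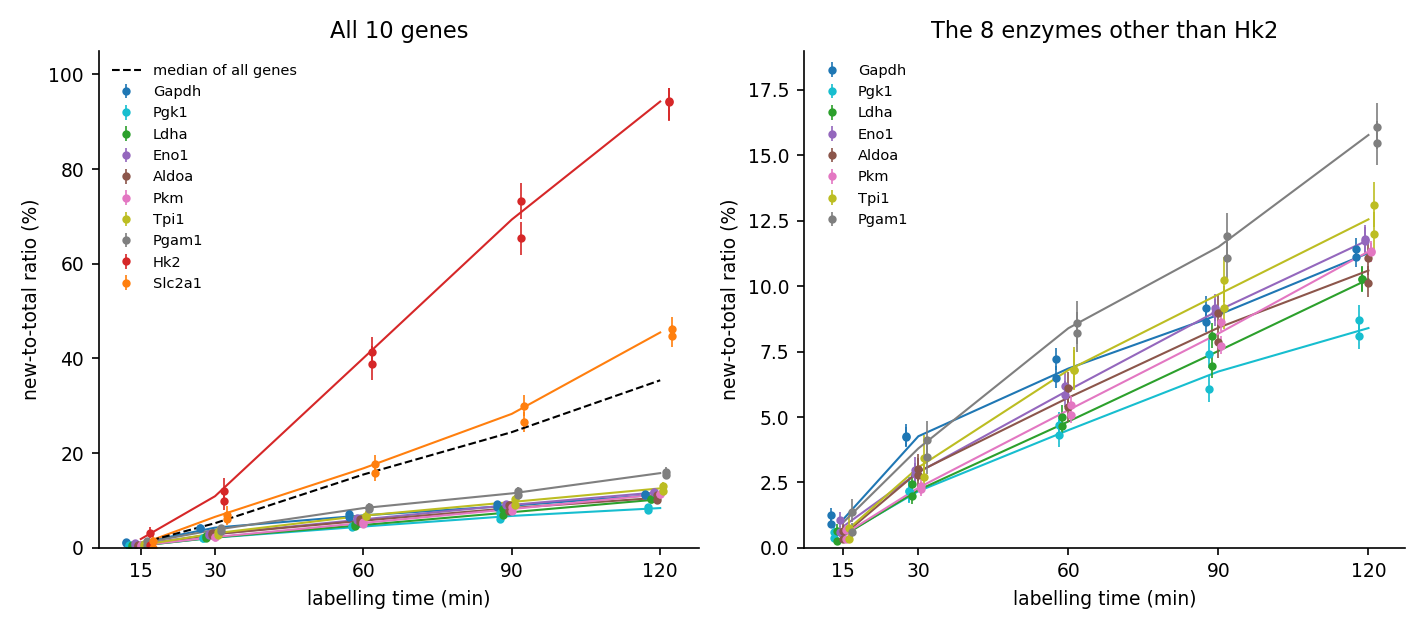
New-to-total ratio (%) of each gene against labelling time (min), with a point for each library, its 90% interval as a bar and a line through the means of the 2 libraries; points are offset sideways for legibility. Hk2 reached 94.3% and Slc2a1 45.5% at 120 min, while the 8 lower enzymes in the right panel stayed between 8.40 and 15.8%.

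Gapdh, the dehydrogenase that couples oxidation of the triose to phosphate uptake, followed another course than its neighbours. Its NTR was 1.27 and 0.92% after 15 min, 4.25 and 4.28% after 30 min, 6.51 and 7.20% after 60 min, 9.17 and 8.64% after 90 min, and 11.4 and 11.1% after 120 min. At 30 min its mean was the highest of the 8 lower enzymes, but its 90% intervals overlapped those of Pgam1. At 120 min it lay in the middle of them. Of 322 genes within 1 percentage point of its NTR at 120 min, 91.9% had a lower NTR at 30 min and 69.3% at 90 min. Their median at 30 min was 2.22%, against 4.27% for Gapdh. Gapdh was still below their 95th percentile at 30 min, which was 4.665%. These genes were matched at 120 min, so a middle position at that duration follows from the choice. The position of Gapdh among them changed with the duration, as did that of Pgam1. Pgam1 was above 76.8, 74.9 and 53.9% of the 362 genes like it at 30, 60 and 90 min. Pkm was above 50.9, 38.3 and 48.8% of the 324 genes like it at the same durations. Hk2 differed in the other direction. Of 111 genes with a like NTR at 120 min, 6.31% were lower than Hk2 at 30 min and 4.50% at 60 min, and their median was 52.9% at 60 min, against 40.1% for Hk2.

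An apparent half-life was computed from each NTR as if the RNA were at steady state and lost exponentially. A transcript that meets those terms gives the same value at every duration. From 30 min on, values for Pgk1 and Aldoa were close to this. At 15 min, where the NTR of both was 0.495%, the half-life was 2194 min ± 660 for Pgk1 and 2292 min ± 952 for Aldoa and is left out of the comparison. Pgk1 had 950.1 min ± 3.14 after 30 min, 905 min ± 52.4 after 60 min, 903 min ± 129 after 90 min and 949 min ± 53.5 after 120 min (SD, n = 2). For Aldoa, which splits fructose 1,6-bisphosphate, the same durations gave 705 min ± 41.7, 707 min ± 66.3, 713 min ± 69.5 and 744 min ± 48.3. These values differed by less than or about the SD between replicates. Gapdh lengthened from 477 min ± 2.43 at 30 min to 587 min ± 43.3, 669 min ± 29.5 and 696 min ± 13.0. Pkm went the other way, from 896 min ± 36.3 at 30 min to 692 min ± 3.21 at 120 min. At 30 and 120 min the remaining enzymes had 940 and 768 min (Ldha), 711 and 664 min (Eno1), 676 and 621 min (Tpi1), and 541 and 485 min (Pgam1). For Tpi1 and Pgam1 the change was within the SD at 30 min, which was 118 and 69.8 min. Near-constant values were therefore not limited to Pgk1 and Aldoa.

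For the fast pair the apparent half-life depended on the duration throughout. That of Hk2 was 182 min ± 26.8 after 30 min, 81.3 min ± 4.49 after 60 min, 53.0 min ± 8.24 after 90 min and 29.1 min ± 0.264 after 120 min. That of Slc2a1 was 309 min ± 33.5, 227 min ± 19, 188 min ± 19.1 and 137 min ± 4.54 at the same durations. Each was shorter at every longer duration, and the values of the replicates at 30 and 120 min did not overlap. The median over all genes went from 368 min ± 11.4 at 30 min to 198 min ± 5.41 at 120 min, so a shorter value at longer labelling was not limited to these genes. Near an NTR of 100% the half-life is sensitive to the estimate: the 90% interval of Hk2 at 120 min in replicate A ran from 23.4 to 35.4 min.

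**Figure D2:**
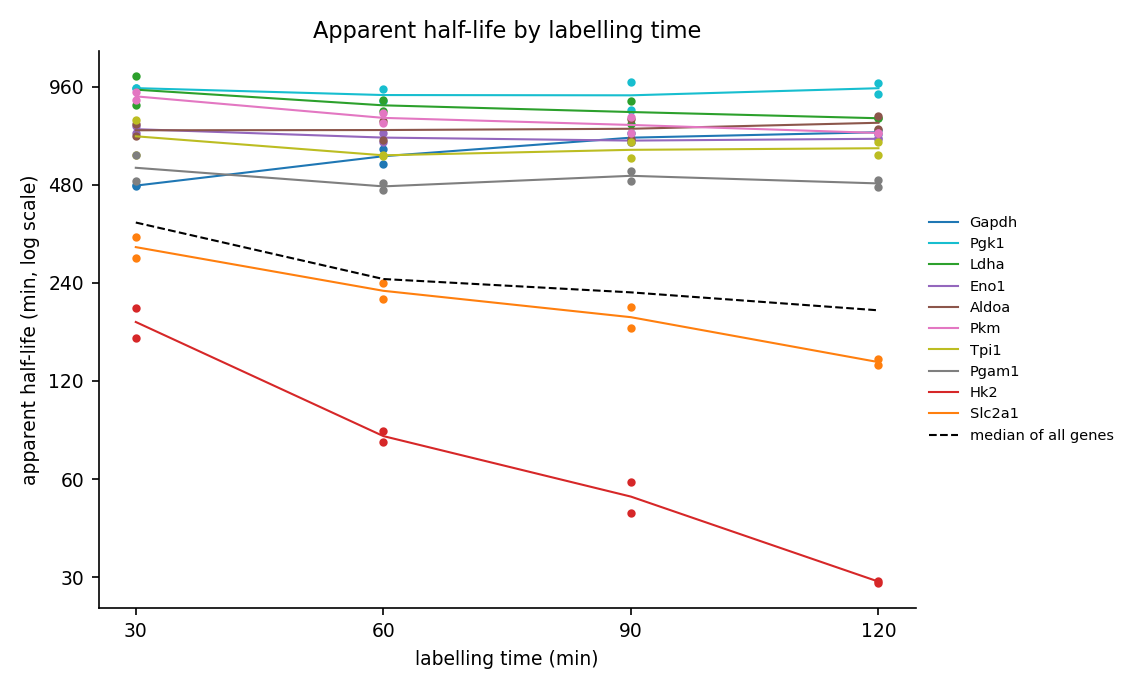
Apparent half-life (min, log scale) from the NTR at 30 to 120 min of labelling, with a point for each library and a line through the means; the dashed line is the median of all genes, and 15 min is not drawn. Hk2 went from 182 to 29.1 min and Slc2a1 from 309 to 137 min, while Pgk1 stayed between 903 and 950.1 min and Gapdh went from 477 to 696 min.

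Multiplying each CPM by the NTR and by its complement divides a gene's reads into new and old RNA. CPM are relative to the other reads of a library, so neither part is an absolute amount. The old RNA of Hk2 was 143 and 146 CPM after 15 min, 118 and 121 after 30 min, 75.4 and 81.0 after 60 min, 30.1 and 46.1 after 90 min, and 6.07 and 6.19 after 120 min. Set against the no4sU mean of 138 CPM, this was 104% ± 1.34 at 15 min and 4.43% ± 0.0620 at 120 min (SD, n = 2). New Hk2 RNA at 120 min reached 72.9% ± 0.986 of the no4sU mean, so new and old RNA together fell short of the unlabelled level. Old Slc2a1 RNA was 102% ± 1.16, 96.5% ± 1.82, 86.9% ± 2.18, 75.5% ± 1.78 and 55.9% ± 0.671 of the no4sU mean of 204 CPM at 15 to 120 min. Its new RNA reached 46.7% ± 1.5, and new and old RNA added up to the unlabelled level within the spread of the no4sU pair.

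In the 8 lower enzymes the mean old RNA lay between 90.5 and 102% of the unlabelled level over all durations. It was 97.1 to 99.6% at 15 min, 92.3 to 95.6% at 30 min, 90.5% (Tpi1) to 97.7% (Pkm) at 60 min, and 92.0 to 100.2% at 90 min. At 120 min the old RNA was 102% ± 1.37 for Pkm, 102% ± 0.506 for Aldoa, 101% ± 1.34 for Pgk1, 100.4% ± 0.613 for Eno1 and 98.9% ± 0.722 for Ldha. It was 96.1% ± 0.105 for Gapdh, 95.3% ± 1.21 for Tpi1 and 94.2% ± 0.284 for Pgam1. New RNA came on top of this, from 9.24% ± 0.421 of the no4sU mean for Pgk1 to 17.6% ± 0.654 for Pgam1. In each of these genes new and old RNA together, which is the total CPM, thus exceeded the unlabelled mean at 120 min. Whether the absolute amount of these RNAs rose was not measured. The percentages share the 2 no4sU libraries as reference, and their SD leaves out the spread of that reference.

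**Figure D3:**
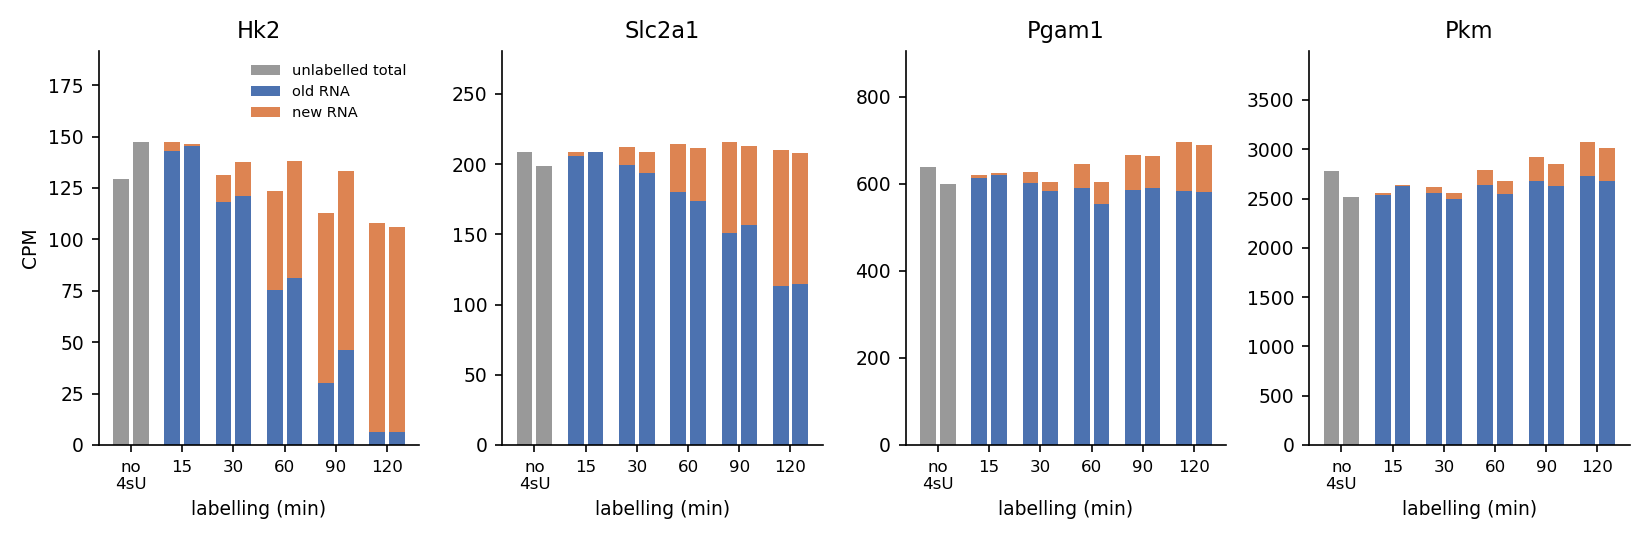
CPM of Hk2, Slc2a1, Pgam1 and Pkm in each library, A left and B right in each pair, divided into old (blue) and new RNA (orange) by the NTR; grey bars are no4sU totals. Old Hk2 RNA was down to 6.07 and 6.19 CPM at 120 min while old Pkm RNA was 102% of its no4sU mean.

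Total reads were then compared between groups with edgeR's quasi-likelihood test over all genes, and genes were called at a p below 0.05 after Benjamini-Hochberg adjustment. Up to 90 min no member passed it against no4sU. The members called numbered 0 of 11 at 15 min, where 0.0% of all 11564 genes tested were called, 0 of 11 at 30 min (0.0%), 0 of 11 at 60 min (0.0173%) and 0 of 11 at 90 min (1.39%). At an unadjusted p below 0.05 the counts of members were 0, 0, 0 and 4, the last being Pgk1, Eno1, Pkm and Hk2. The shares of all genes at an unadjusted p are not given, so these counts have no background. DESeq2 called 0 members at each of these durations. The 4 comparisons and the next share the no4sU libraries. Leaving out no4sU B gave 2, 4 and 1 calls at 15, 30 and 60 min, all lower, where 11.4, 11.7 and 10.4% of all genes were called. Leaving out no4sU A gave 9 at 90 min (8 higher, 1 lower), where 12.3% of all genes were called.

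After 120 min the reads of 4 lower enzymes were higher than without 4sU and those of Hk2 were lower. Of the 11 entries, 5 were called, against 14.2% of all genes tested (5.43% higher and 8.78% lower). Pkm had 2784 and 2519 CPM without 4sU and 3076 and 3016 CPM at 120 min, and rose by 0.20 ± 0.051 (log2 fold change and its SE, edgeR adjusted p = 0.0124). Both labelled libraries lay above both unlabelled ones. Hk2 had 129 and 147 CPM without 4sU and 108 and 106 CPM at 120 min, and fell by 0.37 ± 0.078 (adjusted p = 0.00382), again with no overlap. Eno1 (0.19), Aldoa (0.19) and Pgam1 (0.16) also rose, with adjusted p of 0.0138, 0.0265 and 0.0370. Gapdh, Pgk1, Ldha and Tpi1 had log2 fold changes of 0.11 to 0.14 and adjusted p of 0.180, 0.0621, 0.0649 and 0.152, and Slc2a1 had 0.037 ± 0.052 (adjusted p = 0.665). In CPM the 8 lower enzymes lay above both no4sU libraries in both 120 min libraries and Hk2 lay below, where 25% of all genes lay above and 26.6% below. The median over the 11 entries was 0.14, beside 0.0065 over all genes. These calls were not firm. The percentages that follow are of genes called after adjustment and are no background for the counts of members at an unadjusted p. The only call left under scaling by library size alone was that of Hk2 (0 higher, 1 lower, where 16.3% of all genes were called, 1.76% higher and 14.6% lower), and 0 calls remained when only the 2 groups were fitted (1.5% of all genes, and 4 members at an unadjusted p below 0.05) or without 120 min B (3.99% of all genes, and 5 members at an unadjusted p below 0.05). The count was 9 without no4sU A (30.2% of all genes), 3 without no4sU B (16.2%) and 1 without 120 min A (3.87%).

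Between 15 and 120 min of labelling, 6 lower enzymes rose and Hk2 fell. This comparison does not use the level of the unlabelled pair. The fit held all 12 libraries, however, so that pair entered the estimate of the spread. Of the 11 entries, 7 were called, against 19.3% of all genes (7.93% higher and 11.3% lower). Pkm had 2555 and 2636 CPM at 15 min and rose by 0.23 ± 0.051 to 120 min (edgeR adjusted p = 0.00380). Aldoa, with 834 and 857 CPM at 15 min and 992 and 989 CPM at 120 min, rose by 0.23 ± 0.056 (adjusted p = 0.00804). For Eno1, which makes phosphoenolpyruvate, 1346 and 1366 CPM became 1567 and 1552 CPM, a rise of 0.20 ± 0.048 (adjusted p = 0.00656). In all 3 genes both 120 min libraries exceeded both 15 min libraries. Pgk1, Ldha and Pgam1 each rose by 0.15, with adjusted p of 0.0397, 0.0407 and 0.0380. Gapdh (0.14, adjusted p = 0.0997) and Tpi1 (0.13, adjusted p = 0.132) did not pass in this fit. Both passed when only the 2 groups were fitted (edgeR adjusted p = 0.00187 and 0.00561).

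Hk2 and Slc2a1 parted here. Hk2 had 148 and 147 CPM at 15 min and fell by 0.46 ± 0.078 to 108 and 106 CPM at 120 min (edgeR adjusted p = 0.000663). Slc2a1 had 209 and 209 CPM at 15 min, 210.0 and 208 CPM at 120 min, and a log2 fold change of -0.00051 ± 0.052 (adjusted p = 0.995). The 15 and 120 min libraries did not overlap for Hk2 and overlapped for Slc2a1. In CPM all 8 lower enzymes lay above in both 120 min libraries, and Hk2 lay below in both, where 33.4% of all genes lay above and 32.7% below. Scaling by library size left 4 calls (3 higher, 1 lower, where 19.8% of all genes were called, 3.68% higher and 16.1% lower). Without any one of the 4 libraries 1 to 4 calls were left: 1 without 15 min A (5.62% of all genes), 4 without 15 min B (8.86%), 3 without 120 min A (8.7%) and 2 without 120 min B (6.03%). With only the 2 groups fitted, 9 were called (8 higher, 1 lower), where 33.6% of all genes were called. Hk2 was called in each of the 4 fits without a library, and Pgk1, Ldha and Pgam1 in none of those 4.

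All durations together gave the clearest picture. Over the 10 labelled libraries, 9 of the 11 entries changed with labelling time, against 37.8% of the 11526 genes tested (18.3% higher and 19.5% lower). Aldoa and Pkm rose by 0.14 ± 0.018 and 0.14 ± 0.017 log2 per hour (edgeR adjusted p = 4.81e-08 and 1.51e-08). Eno1 (0.12), Pgk1 (0.11), Ldha (0.11), Pgam1 (0.095), Gapdh (0.084) and Tpi1 (0.081) also rose, with adjusted p from 2.13e-07 for Eno1 to 0.00152 for Tpi1. Hk2 fell by 0.23 ± 0.029 per hour (adjusted p = 5.07e-08). Slc2a1 had 0.0032 ± 0.020 per hour (adjusted p = 0.920). The median over the 11 entries was 0.095 per hour, beside 0.0036 over all genes. No call was lost in any of the 10 fits that left out a labelled library. That of Tpi1 was lost with library size scaling and with the no4sU libraries added as time 0. Of the 10 fibroblast markers, 7 rose over labelling time (Col1a1, Col1a2, Fn1, Vim, Sparc, Thy1 and Dcn) and 0 fell, and the summed level of the 10 was 14670 to 14732 CPM in the no4sU libraries and 17429 to 18178 CPM at 120 min. Their part in the result was not tested.

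**Figure D4:**
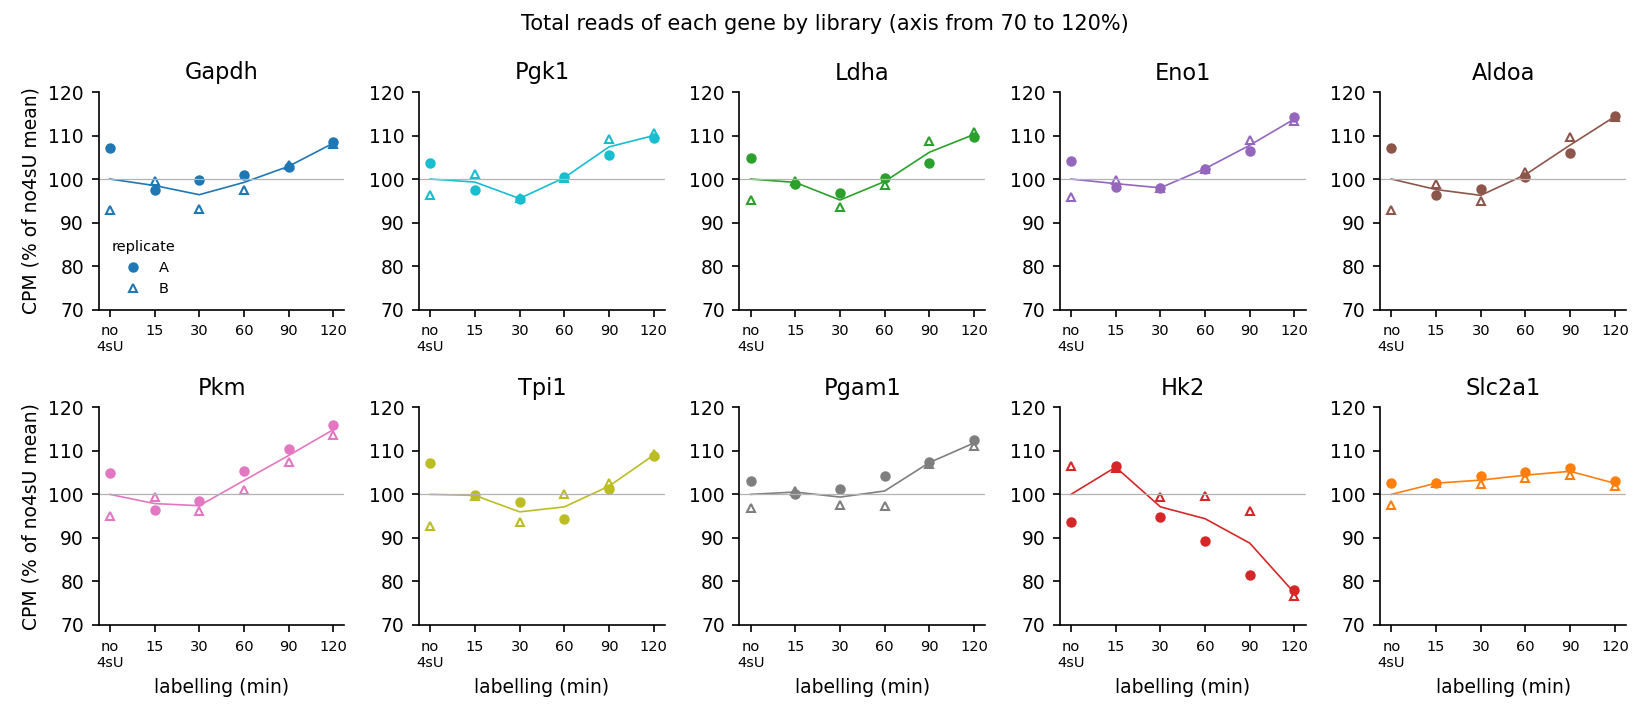
CPM of each gene in each library as a percentage of its no4sU mean, with replicate A filled, B open and a line through the means; the vertical axis runs from 70 to 120%. The 8 lower enzymes are highest at 120 min, Hk2 is lowest there, Slc2a1 stays near 100%, and the no4sU pair is wide apart for most genes.

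The members were next set beside genes with a like share of new RNA, in 10 groups of the 9065 genes ordered by NTR at 120 min. The NTR and the fold change come partly from the same 120 min libraries, so this is a description. In the group with the lowest NTR, which held 7 of the 8 lower enzymes, the median log2 fold change from 15 to 120 min was 0.21, and the members ran from 0.13 (Tpi1, above 16.9% of the group) to 0.23 (Pkm, above 62.0%). Pgam1, in the second group, had 0.15, beside a median of 0.15. The rise of the lower enzymes was therefore close to that of other genes with little new RNA, or smaller. In the group with the highest NTR the median was -0.27, and Hk2, at -0.46, was above 16.8% of it. Slc2a1, at -0.00051, was above 72% of its group, whose median was -0.086.

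**Figure D5:**
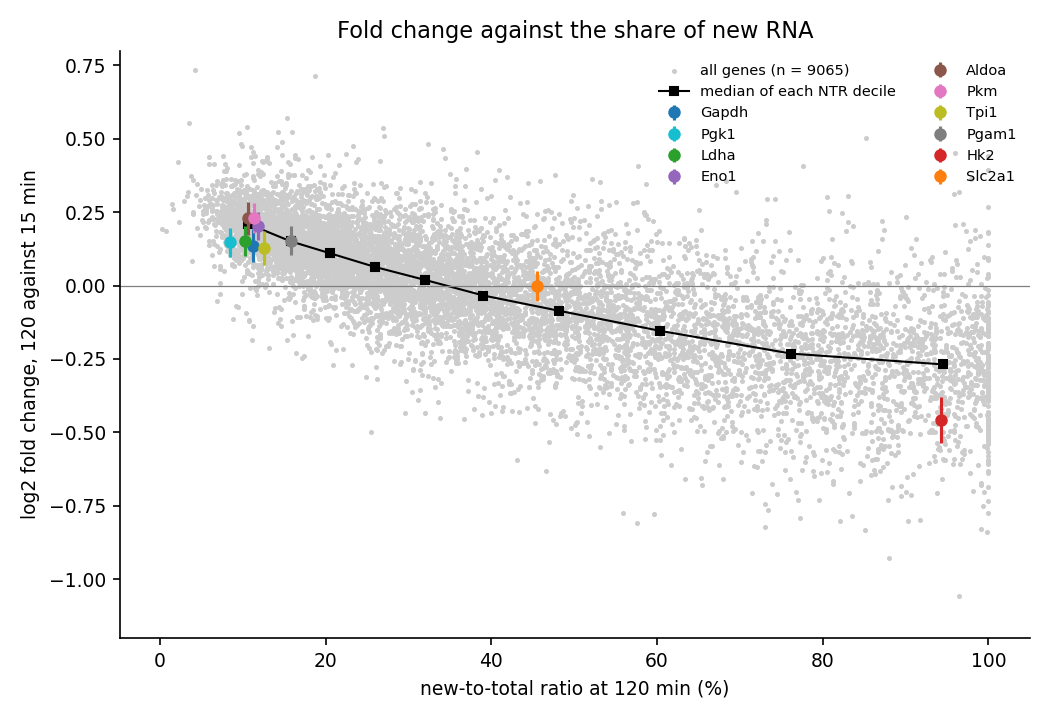
Log2 fold change from 15 to 120 min against the NTR at 120 min (%), with 9065 genes in grey, the medians of the 10 NTR groups as squares, and the 10 members in colour with the SE. The lower enzymes lie at the upper left near the median of 0.21, Slc2a1 lies at 45.5% above the line, and Hk2 lies at 94.3% below it.

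To see how much of these differences went with the share of new RNA, the new part of every count was enlarged until fold change and NTR no longer correlated across all genes. This took an implied loss of new RNA of 14.6% at 60 min, 22.5% at 90 min and 31.3% at 120 min. At 15 and 30 min the estimate was negative (-16.3 and -1.08%) and was set to 0. After this change 0 members were called at 120 min against no4sU (1.62% of all genes) and 0 against 15 min (2.15% of all genes) by edgeR. At an unadjusted p below 0.05 there were 0 and 1, for which the shares of all genes are not given. Over labelling time 2 were called, Aldoa (0.050 per hour) and Pkm (0.051 per hour), beside 13.4% of all genes. Hk2 stood at -0.17 from 15 to 120 min in place of -0.46. The lower enzymes ranged from -0.026 for Pgk1 to 0.075 for Pkm in the same comparison. Since the enlargement was set to remove the correlation, values near 0 in genes close to the median of their NTR group follow from its construction. The implied loss was estimated from the same libraries, with all genes in 1 estimate.

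Other genes of glucose metabolism were counted in 5 lists, which hold 64 symbols, 55 of them in the table and 47 tested. From 15 to 120 min, 14 were called higher and 5 lower, beside the same 7.93 and 11.3% of all genes. The lists differed. Of 8 enzymes of the pentose phosphate pathway, which makes NADPH and ribose, 7 rose (H6pd, G6pdx, Pgls, Pgd, Rpe, Tkt and Taldo1). Tkt, the transketolase, had 384 and 402 CPM at 15 min and 465 and 463 CPM at 120 min, a rise of 0.24 ± 0.049 (edgeR adjusted p = 0.00245). H6pd rose by 0.32 ± 0.081, and Rpia had -0.28 ± 0.12 (adjusted p = 0.102). The NTR of this list ran from 12.1% (Taldo1) to 50.2% (Rpia), and the median log2 fold change was 0.23.

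Of the 12 other glycolytic enzymes and isoforms tested, 4 rose and 0 fell, with a median of 0.17. They were Gpi1, which interconverts the hexose phosphates (0.21, NTR 12%), Bpgm (0.37, NTR 41.9%), Ldhb, the heart-type lactate dehydrogenase subunit (0.27, NTR 8.59%), and Eno1b (0.17, NTR 12%). Hk1, the other hexokinase in these cells, had 0.17 ± 0.065 (edgeR adjusted p = 0.0706) and an NTR of 22.9%, far from the 94.3% of Hk2. The NTR of the list was lowest in Ldhb and highest in Eno2, at 73.7%. Of 5 transport genes tested only Bsg, the chaperone of the lactate transporters, rose (0.20, NTR 7.75%), and the highest NTR was 89.7%, in Slc2a10.

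Among regulators of flux the calls had the direction of Hk2. Of 9 tested, 3 fell and 0 rose from 15 to 120 min, with a median of -0.27. Pfkfb3, which makes the activator of phosphofructokinase, had 13.1 and 14.7 CPM at 15 min and 9.30 and 7.95 CPM at 120 min, a fall of 0.70 ± 0.14 (edgeR adjusted p = 0.00234), and its NTR was 98.2%. Txnip, a glucose-responsive inhibitor of glucose uptake, fell by 0.45 ± 0.13 (adjusted p = 0.0190) at an NTR of 100%. Mlxip, a glucose-sensing transcription factor, fell by 0.27 ± 0.068 (adjusted p = 0.00902) at 67.3%. The lowest NTR of the list was 35.8%, in Hif1a. The list of pyruvate entry to mitochondria was mixed: of 13 tested, Pdha1 (0.17, NTR 17.6%) and Dlat (0.21, NTR 15.0%) rose, and Pdhx (-0.33, NTR 45.6%) and Pdp1 (-0.34, NTR 95.9%) fell. Its median was 0.13, and its NTR ran from 10.4% (Mpc2) to 97.6% (Pdk4).

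Within the members, the courses over the 10 labelled libraries were alike for the lower enzymes. The Pearson r of each with the mean of all members in log2(CPM + 1) was 0.89 (Tpi1) to 0.99 (Ldha), that of Slc2a1 was 0.046 and that of Hk2 was -0.69. Each gene is itself part of that mean, and the points share libraries. Of 2690 other genes whose mean count reached 1000, the 5 with the most similar course were Cttn (r = 0.986), Myl6 (0.982), Reep5 (0.968), S100a11 (0.967) and Lasp1 (0.965). Their NTR at 120 min was 14.1, 4.43, 10.9, 8.95 and 24.4%, below the median of all genes.

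Several lower enzymes have near-identical copies in the genome among which reads could be divided. The search covered genes annotated as pseudogenes in GENCODE M21 and Eno1b, which was added by name, and no other genes. A copy had to match the member's transcript over at least 300 bases at 90% identity or more. Gapdh had 168 such copies, Ldha 13, Pkm 8, Eno1 6, Aldoa 5, Pgk1 4, Pgam1 3 and Tpi1 2, and Hk2 and Slc2a1 had 0. Of these copies only Eno1b had an entry in the table. Its mean count was 6861, which is 42.4% of that of Eno1, and its NTR at 120 min was 12%, beside 11.8% for Eno1. The values of Eno1 and Eno1b are therefore uncertain, as are those of the other genes with copies to a smaller or unknown degree. Counts that were not whole numbers, which can arise where reads are shared, occurred in 10 to 12 of the 12 libraries for each lower enzyme, in 5 for Hk2 and in 2 for Slc2a1. The second Aldoa entry (ENSMUSG00000114515) begins 38 bases beyond the first on chromosome 7 and had 4 to 13 reads per library. Its 90% interval of the NTR spanned 48 percentage points on average at 120 min, and no difference in it was detectable at this depth.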

How the data were processed

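For 12 SLAM-seq libraries the authors deposited 1 table, which lists 17419 genes and has 0 columns of other samples. It holds the authors' estimated counts without scaling between libraries. Of these values 20.4% were not whole at a tolerance of 1e-06, and all were rounded before testing. Per the file headers, the NTR is a fraction per labelled library, given as posterior maximum (used here), posterior mean, 0.05 quantile and 0.95 quantile. The deposited alpha and beta columns, each a score that describes the posterior, were not used. Gene length in bases was as deposited. Cutadapt, Bowtie2 2.3.0 and STAR 2.7.10b are named in the submitters' processing notes without their roles. None of the sources used here names the counting tool, its use of strand or the genome build.

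Total counts per library were 9917026 to 13739380. Counts were tested with edgeR 4.0.16 (R 4.3.3): filterByExpr, TMM factors of 0.970 to 1.02, quasi-likelihood fit of all 12 libraries in 6 groups without covariates (common biological coefficient of variation 4.44%), and for labelling time a slope per hour in the 10 labelled libraries. DESeq2 1.42.0, scaling, filtering, a replicate block, scaling of the labelled part, fits of fewer groups and left-out libraries were the alternatives. The apparent half-life was ln 2 times the labelling time over -ln(1 - NTR), and its median over all genes took those with an NTR of 0.01 to 0.99. Locations and transcripts came from GENCODE M21, promoters from RefSeq (GRCm38.p6; 10 of 10 members matched), and copies from BLAST 2.17.0. Python 3.11.15 was used for the rest. The members, lists and motifs were chosen with earlier results of these data known. All members were named, with those list genes that passed the threshold from 15 to 120 min and those of lowest and highest NTR in each list, and Hk1, Rpia and Tkt as examples.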

Additional observations from a re-analysis of the deposited data

How the results depend on the processing

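With DESeq2 the counts of members called were the same as with edgeR in the comparisons at 120 min and over labelling time. DESeq2 called 9.16% of all genes at 120 min against no4sU, 12.6% against 15 min and 32% over labelling time. Shares over all genes are not given for the fit without a filter, for unadjusted p-values or for DESeq2 up to 90 min. At 120 min against no4sU, where 5 were called, library size scaling gave 1, no filter on low counts 8, the labelled part scaled up 0, the 2 groups alone 0, and fits without a library 0 to 9. At 120 against 15 min, where 7 were called, library size scaling gave 4, no filter on low counts 8, the labelled part scaled up 0, the 2 groups alone 9, and fits without a library 1 to 4. Over labelling time the labelled part scaled up gave 2 in place of 9. At 15, 30, 60 and 90 min against no4sU, fits without a library gave 0 to 2, 0 to 4, 0 to 1 and 0 to 9 calls. In fits without a library, the lone sample is assumed to vary like the other groups. The median log2 fold change of the members was 0.075 (no4sU) and 0.090 (15 min) with library size scaling, and 0.085 to 0.21 and 0.13 to 0.16 without a library. With the labelled part scaled up, values of called genes changed sign for Pgk1 (-0.026) and Ldha (-0.010) at 120 against 15 min and for Gapdh (-0.0045) and Tpi1 (-0.0029) over time. In 14 of 396 alternatives an uncalled value within 1 SE of 0 changed sign. Beyond the alternative's own construction, the cause was not tested.

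No pairing by replicate letter was seen in the counts, where none of 15 correlations of deviations between same-lettered libraries exceeded 0.1 (-0.072 to 0.090). These correlations cannot show whether same-lettered libraries shared a culture, and they did not cover the NTR. The fit with a replicate block called 5 members at 120 min against no4sU (15% of all genes), 7 against 15 min (20%) and 9 over labelling time (38.6%). Depth limits every value of the second Aldoa entry. The NTR at 15 min differed between A and B in Hk2, in Slc2a1 and in the median of all genes (1.34 and 0.67%), and the cause was not tested.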
